A study of Mus musculus with 8 samples.

Results

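Enzymes other than *Setd2* that have been reported to methylate lysine 36 of histone H3 (H3K36) were followed in mouse lung tumors started with or without a guide RNA against *Setd2*. The 8 genes, *Nsd1*, *Nsd2*, *Nsd3*, *Ash1l*, *Setd5*, *Setd3*, *Setmar* and *Smyd2*, were chosen by name and found in the count table through their Ensembl identifiers. They make up 8 of the 48709 genes listed, and all 8 were among the 14929 genes with enough counts to be tested. The question put to the data was whether mRNA of any of these enzymes was higher in tumors targeted at *Setd2*, as a compensation at the transcript level would require.

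RNA came from 8 flash-frozen tumors of the *K* model, 4 in *K-Ctrl* and 4 in *K-Setd2KO*, as the design text has it. The extraction text of the labels mentions cell lines instead, and which of these applies was not settled. Mice of both groups were of the same Cre-inducible tumor model on a mixed strain background, and tumors were begun in the airway with LentiCRISPRv2Cre, a lentivirus that brings Cre, Cas9 and a guide RNA into the same cell. The guide was directed at GFP in *K-Ctrl* and at *Setd2* in *K-Setd2KO*, so Cas9, Cre and the tumor model were common to both groups. The groups were matched for stage by histology, and the *K-Setd2KO* tumors were low-grade adenomas. Mice were at most 20 weeks old when tumors were begun, the age at collection and the time after infection of these tumors are not given in the sources used here, and whole tumors also hold stromal and immune cells that the virus did not target. The labels do not say that each tumor came from its own mouse, so p-values measure the spread between these tumors. Total counts ran from 5806599 to 21290402 per tumor, and the totals of the groups overlapped.

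H3K36 can be mono-, di- or trimethylated. The NSD family and ASH1L place up to the dimethyl mark, which marks active chromatin and is read by DNA methyltransferases, and SETD2 travels with elongating RNA polymerase and is the main enzyme that adds the trimethyl mark over gene bodies. SETD5, SETD3, SETMAR and SMYD2 also carry a SET domain, the catalytic fold of most lysine methyltransferases, and have been linked to H3K36, but each is debated as a histone enzyme or has better known substrates.

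*Setd2* itself (chromosome 9) was read at 153, 138, 132 and 138 CPM (counts put on one library size for all tumors) in *K-Ctrl* replicates 1 to 4 and at 145, 121, 124 and 153 CPM in *K-Setd2KO* replicates 1 to 4. The ranges overlapped, and the log2 fold change was −0.05 with a standard error (SE) of 0.115 (edgeR adjusted p = 0.824). A guide RNA changes the coding sequence without having to remove the transcript, so this value does not check the labels.

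In the edgeR fit for genotype alone no member was called in either direction, while other fits called up to 2. By edgeR's quasi-likelihood test with Benjamini-Hochberg adjustment over all genes tested, 0 of 8 members passed an adjusted p of 0.05, where 12.7% of all tested genes did, 4.97% as higher and 7.74% as lower. Called genes had unadjusted p-values of up to 0.00633. In *K-Setd2KO*, 4 members were read higher and 4 lower, and the median over the members was 0.01 on the log2 scale beside 0.03 over all tested genes. An unadjusted p under 0.05 was reached by 3 of 8 members (37.5%), *Nsd2*, *Nsd3* and *Smyd2*, against 29.9% of all tested genes. The CPM ranges of the groups did not overlap for the same 3 of 8, against 20.3% of all tested genes. DESeq2, the program the study used, called 2 of 8 members (25%), *Nsd2* and *Nsd3*, both lower, and 21.5% of the genes it tested. No member was called as higher by DESeq2. *Setd5* was called as higher by edgeR with a length and GC offset (adjusted p = 0.0345) and without *K-Setd2KO* replicate 2 (adjusted p = 0.0253).

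**Figure D1:**
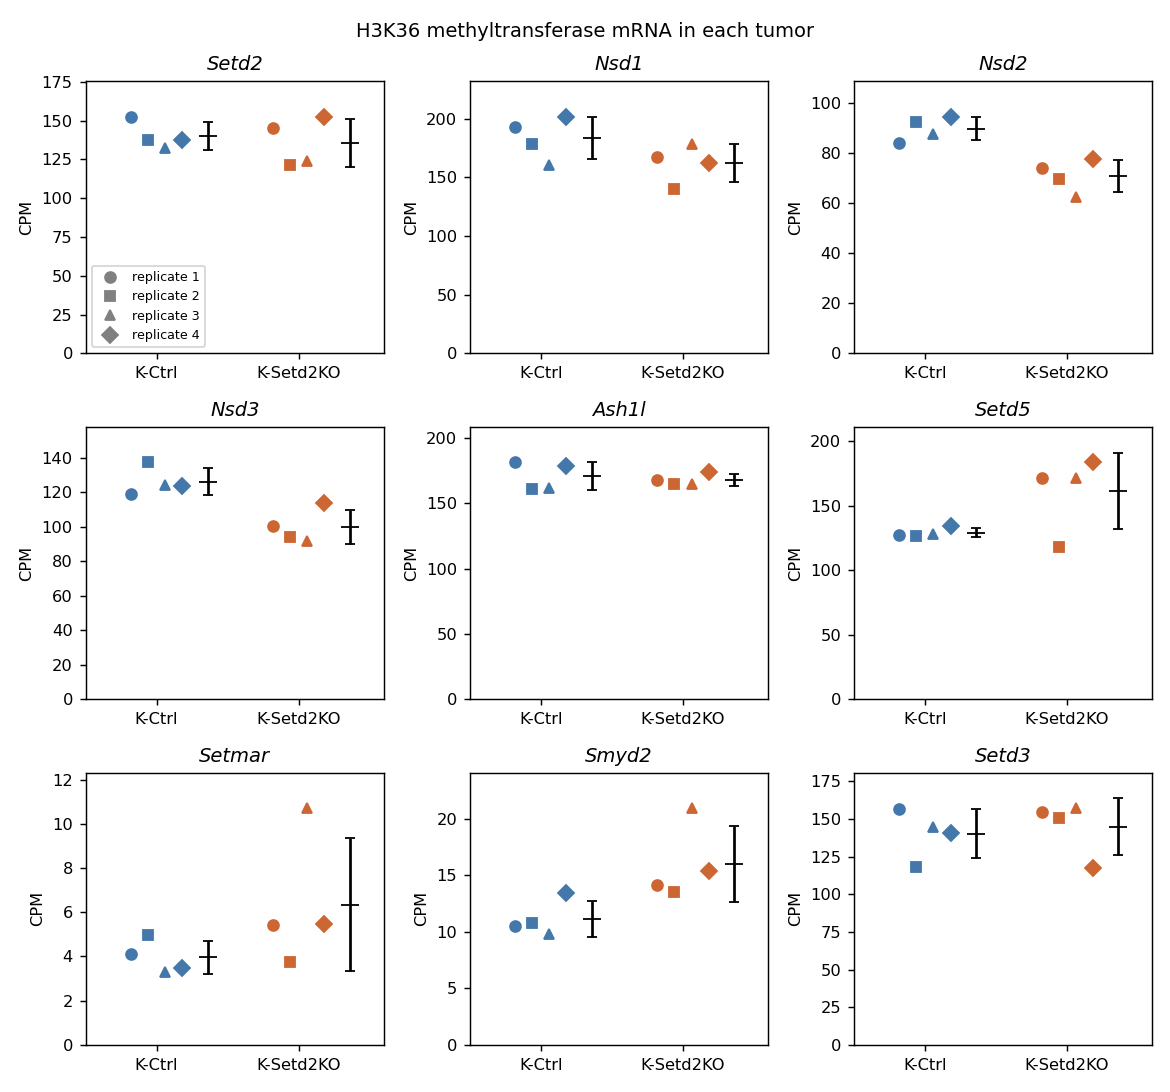
CPM of the 8 methyltransferases and *Setd2* in each tumor, with 1 panel per gene, points for single tumors and bars for the group mean with SD (n = 4 each). The groups separated for *Nsd2*, *Nsd3* and *Smyd2*, and *K-Setd2KO* replicate 2 sat below the other 3 tumors of its group for *Setd5*.

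The intervals of the differences from the fit without offsets bound the increase of each member under that fit. The upper end of the 95% interval lay under a 1.5-fold increase for 5 of 8 members, at 1.07-fold for *Nsd1*, 0.933-fold for *Nsd2*, 0.942-fold for *Nsd3*, 1.14-fold for *Ash1l* and 1.28-fold for *Setd3*. It lay at 1.56-fold for *Setd5* and 1.96-fold for *Smyd2*. *Setmar*, the member with the fewest counts, was the only one of the 8 whose interval passed 2-fold, with an upper end of 2.76-fold. For 7 of 8 members the within-group SD of log2 CPM was below 0.335, the median over all tested genes. The exception was *Setmar*. That median takes in genes of all count levels and is not matched to the members.

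**Figure D2:**
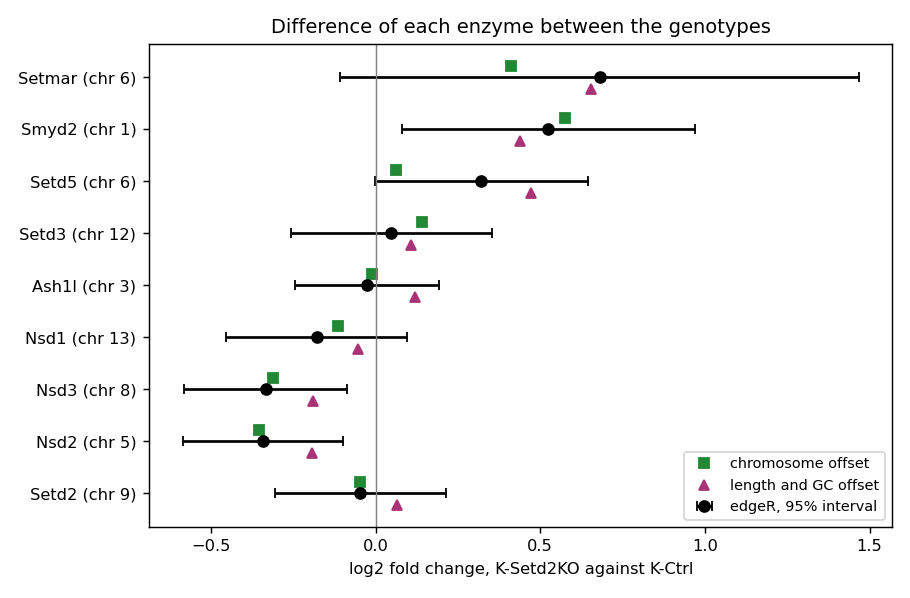
Log2 fold change of each member in *K-Setd2KO* against *K-Ctrl* with its 95% interval (edgeR, n = 4 each). *Nsd2* and *Nsd3* lie below 0 and *Smyd2* above it, while the intervals of the other members span 0.

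*Nsd2* and *Nsd3* were both read lower by about the same amount. Neither passed edgeR's adjusted threshold, while both passed that of DESeq2 (adjusted p = 0.0178 and 0.0227) and *Nsd2* also passed in edgeR when at least 10 counts were required in every tumor (adjusted p = 0.0478). With a length and GC offset both log2 fold changes shrank to −0.19 (edgeR adjusted p = 0.238 and 0.232). *Nsd2* encodes the NSD enzyme that is overexpressed by translocation in multiple myeloma (ENSMUSG00000057406.16, protein-coding, GRCm38 chromosome 5, 33820725 to 33897975, plus strand). Its level was 84.0, 92.4, 87.5 and 94.4 CPM in the controls against 73.8, 69.4, 62.3 and 77.4 CPM in *K-Setd2KO*. All 4 *K-Setd2KO* tumors lay below the lowest *K-Ctrl* tumor, with replicate 3 the lowest. The means were 89.6 ± 4.72 and 70.7 ± 6.48 CPM (SD, n = 4 each), a 0.789-fold level with a 95% interval of 0.667 to 0.933 (log2 fold change −0.34, SE 0.108, edgeR adjusted p = 0.0679). By a two-sided exact permutation test of this gene alone p was 0.0286, the smallest that 4 tumors against 4 can give.

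*Nsd3* encodes the NSD enzyme that is co-amplified with *Fgfr1* in squamous lung cancer (ENSMUSG00000054823.16, protein-coding, chromosome 8, 25601601 to 25719667, plus strand). It was read at 119, 137, 124 and 124 CPM in the controls and at 100.5, 94.1, 91.8 and 114 CPM in *K-Setd2KO*. Again no *K-Setd2KO* tumor reached the *K-Ctrl* range in CPM, and replicate 4 came closest. The means were 126 ± 7.93 and 100.05 ± 9.88 CPM, a 0.793-fold level with an interval of 0.669 to 0.942 (log2 fold change −0.33 with SE 0.110, edgeR adjusted p = 0.0763, exact permutation p = 0.0286).

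*Nsd1*, whose haploinsufficiency causes the overgrowth disorder Sotos syndrome in people (ENSMUSG00000021488.7, protein-coding, chromosome 13, 55209782 to 55318325, plus strand), did not follow its relatives as closely. It was read at 193, 178, 161 and 202 CPM in the controls and at 168, 139.7, 178 and 162 CPM in *K-Setd2KO*, and the ranges overlapped. The log2 fold change was −0.18 (SE 0.122, 95% interval −0.45 to 0.09, edgeR adjusted p = 0.358).

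Of 14928 other tested genes, *Nsd3* was the one whose profile over the 8 tumors lay closest to that of *Nsd2*, the member with the smallest p. The measure was the root mean square difference of log2 CPM after each gene was centred on its mean, and it came to 0.0615 for *Nsd3*, 0.0647 for *Papola*, the poly(A) polymerase, and 0.0652 for *Ascc3*, a helicase of ribosome quality control and DNA alkylation repair. *Papola* and *Ascc3* both had a log2 fold change of −0.27, with edgeR adjusted p-values of 0.172 and 0.188. *Setd2* came in place 569, ahead of *Nsd1* in place 618 and *Ash1l* in place 712. The other members were farther off, from place 3793 for *Setd3* to place 10803 for *Setmar*. When each gene was centred on its group means instead, which leaves only the spread within groups, *Nsd3* took place 32. That second centring was chosen after the data had been seen.

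Levels can be compared between genes only per length of transcript, here as TPM (counts divided by exon length and scaled to a common total). On this scale the groups overlapped for *Nsd3*, with *K-Ctrl* replicate 1 at 20.8 and *K-Setd2KO* replicate 4 at 20.9 TPM. They also overlapped for *Smyd2*, with *K-Ctrl* replicate 4 at 13.9 and *K-Setd2KO* replicate 2 at 12.6 TPM. For *Nsd2* they did not. The 3 NSD genes summed to 77.9 ± 3.57 TPM in *K-Ctrl* (72.7 to 80.8) and 65.2 ± 9.01 TPM in *K-Setd2KO* (52.6 to 73.5), and these ranges overlapped. As a share of the summed TPM of the 8 members and *Setd2*, they took 30.9% ± 1.59 in *K-Ctrl* (29.4% to 32.8%) and 25.7% ± 1.22 in *K-Setd2KO* (24.4% to 27.4%), without overlap. *Smyd2* and *Setmar* together took 7.17% ± 0.741 (6.42% to 7.996%) and 10.5% ± 2.69 (8.70% to 14.5%), higher in *K-Setd2KO* without overlap. They are the members with the highest fold changes, so their joint share restates those values. *Setmar* alone overlapped between the groups, and the highest joint share was that of *K-Setd2KO* replicate 3. *Setd2* took 14.7% ± 0.597 and 14.2% ± 1.66. These shares sum to a fixed total, so they do not move independently, and they were not tested. The 8 members together came to 227, 206, 209 and 219.6 TPM in *K-Ctrl* and 217, 178, 249 and 225 TPM in *K-Setd2KO*. The *K-Ctrl* tumors lay within the range of the *K-Setd2KO* tumors.

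In *K-Ctrl* the order of levels was *Setd3* (66.4 TPM), *Nsd1* (40.9), *Setd2* (37.2), *Ash1l* (32.9), *Nsd3* (21.8), *Setd5* (20.1), *Nsd2* (15.2), *Smyd2* (11.7) and *Setmar* (6.41), each as the mean TPM of 4 tumors. *Nsd1* was above *Setd2* in 5 of 8 tumors and the *K-Ctrl* ranges of this pair overlapped, as did those of *Setd2* and *Ash1l*. The ranges of all other neighbours in this order were separate in *K-Ctrl*. In *K-Setd2KO* the pairs *Nsd3* and *Setd5* and *Nsd2* and *Smyd2* changed places, with 25.1 TPM for *Setd5* against 17.2 for *Nsd3* and 16.8 for *Smyd2* against 11.9 for *Nsd2*.

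**Figure D3:**
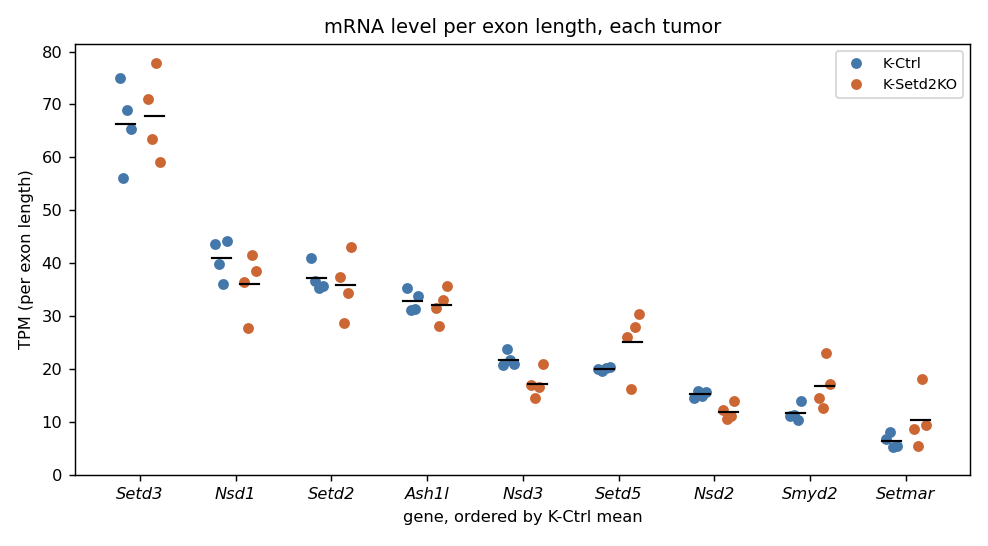
TPM of the 8 members and *Setd2* in each tumor on a linear axis, ordered by the *K-Ctrl* mean. *Setd3* stands highest in all 8 tumors, *Setmar* is lowest in all but *K-Setd2KO* replicate 3, where it is above *Nsd2* and *Nsd3*, and *Nsd2* and *Smyd2* change places between the groups.

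*Ash1l* encodes the trithorax-group dimethyltransferase that works with MRG15 and counters Polycomb silencing (ENSMUSG00000028053.13, protein-coding, chromosome 3, 88950622 to 89079375, plus strand). Its level was 182, 161, 162 and 179 CPM in the controls against 168, 165, 165 and 174 CPM in *K-Setd2KO*. All 4 *K-Setd2KO* tumors fell inside the *K-Ctrl* range. The level was 0.982-fold with an interval of 0.844 to 1.14 (edgeR adjusted p = 0.882).

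*Setd5* encodes a SET-domain protein that works with HDAC3 and whose loss of function impairs brain development (ENSMUSG00000034269.12, protein-coding, chromosome 6, 113077365 to 113153435, plus strand). It was read at 127, 126, 128 and 134 CPM in the controls and at 171, 118, 172 and 183 CPM in *K-Setd2KO*. Replicates 1, 3 and 4 of *K-Setd2KO* stood above every control and replicate 2 below every control. The log2 fold change was 0.32 (SE 0.144, edgeR adjusted p = 0.171, exact permutation p = 0.143), or 1.25-fold with an interval of 0.998 to 1.56.

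Other genes of chromosome 6 moved with *Setd5* in these tumors. Against the *K-Ctrl* mean of each gene, the median log2 difference of the 839 tested chromosome 6 genes was 0.33, −0.03, 0.32 and 0.38 in *K-Setd2KO* replicates 1 to 4 and between −0.03 and 0.02 in *K-Ctrl*. The same difference for *Setd5* was 0.41, −0.13, 0.41 and 0.51. *Setd5* less the chromosome level came to 0.08, −0.09, 0.09 and 0.13. Of the 20 nearest tested neighbours of *Setd5*, 18 were read higher, with a median log2 fold change of 0.28. With the chromosome level taken out of the fit the log2 fold change of *Setd5* was 0.06 (edgeR adjusted p = 0.71), and without *K-Setd2KO* replicate 2 it was 0.44 (edgeR adjusted p = 0.0253).

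*Setmar*, a SET-domain gene fused in primates to a mobile-element transposase that the mouse gene lacks (ENSMUSG00000034639.7, protein-coding, chromosome 6, 108065045 to 108077122, plus strand), was the member with the fewest counts. It had 67, 59, 71 and 39 counts in *K-Ctrl* and 106, 49, 116 and 32 in *K-Setd2KO*, which gave 4.12, 4.96, 3.28 and 3.48 CPM and 5.44, 3.75, 10.7 and 5.48 CPM. *K-Setd2KO* replicate 3 lay far above all other tumors, and replicate 2 lay within the *K-Ctrl* range. The log2 fold change was 0.68 (SE 0.349, 95% interval −0.11 to 1.47, edgeR adjusted p = 0.226), and it was 0.31 without replicate 3 (edgeR adjusted p = 0.537). Less the chromosome 6 level, the log2 differences of *Setmar* in *K-Setd2KO* were 0.13, −0.02, 1.10 and 0.09, so replicate 3 alone of these tumors stood clearly off the chromosome. With the chromosome level taken out of the fit the log2 fold change of *Setmar* was 0.41 (edgeR adjusted p = 0.424).

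**Figure D4:**
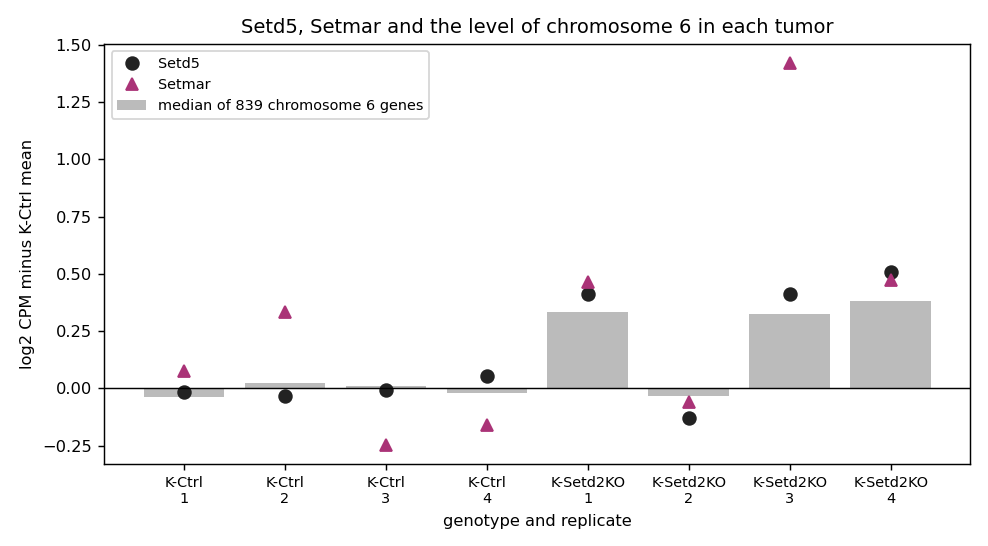
Log2 difference from the *K-Ctrl* mean in each tumor for *Setd5* and *Setmar* (points) and for the median of 839 tested chromosome 6 genes (bars). *Setd5* follows the bars in all 4 *K-Setd2KO* tumors, and *Setmar* leaves them in replicate 3.

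*Smyd2* encodes a lysine methyltransferase best known for methylating p53 and RB1 (ENSMUSG00000026603.13, protein-coding, chromosome 1, 189880492 to 189922363, minus strand). It was read at 10.5, 10.8, 9.79 and 13.48 CPM in the controls and at 14.2, 13.54, 20.9 and 15.4 CPM in *K-Setd2KO*. In CPM all *K-Setd2KO* tumors were above all controls, by a margin that was narrow between *K-Ctrl* replicate 4 and *K-Setd2KO* replicate 2. The level was 1.44-fold with an interval of 1.06 to 1.96 (log2 fold change 0.52, SE 0.197, edgeR adjusted p = 0.111, exact permutation p = 0.0286). With a length and GC offset the log2 fold change was 0.44 (edgeR adjusted p = 0.173), and the interval of 0.993-fold to 1.85-fold spanned no change. With the chromosome level taken out of the fit instead, it was 0.58 (edgeR adjusted p = 0.0849). *K-Setd2KO* replicate 3 again had the highest value, and without it the log2 fold change was 0.37 (edgeR adjusted p = 0.235, with 0.0868 to 0.255 over all fits that left out 1 tumor). *Smyd2* shared 814 exon bases, or 30.0% of its exon length, with *Gm37422* on the other strand, a gene with 158 counts in all against 1432 for *Smyd2*. Whether the counting used the read strand is not given in the sources used here.

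*Setd3* encodes an enzyme now known chiefly as the histidine methyltransferase of actin (ENSMUSG00000056770.15, protein-coding, chromosome 12, 108106431 to 108179314, minus strand). It was read at 157, 118, 145 and 141 CPM in the controls and at 155, 151, 157 and 117 CPM in *K-Setd2KO*. Replicate 4 of *K-Setd2KO* stood apart as the lowest tumor of all, close to *K-Ctrl* replicate 2. The level was 1.03-fold with an interval of 0.837 to 1.28 (edgeR adjusted p = 0.843).

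Promoter windows from RefSeq (GRCm38.p6, 250 bases before to 50 after a transcript start) matched *Setd5*, *Setd3*, *Setmar*, *Smyd2* and *Setd2*. *Nsd1*, *Nsd2*, *Nsd3* and *Ash1l* were not matched. The windows of *Smyd2*, *Setmar* and *Setd5*, the 3 members with the highest fold changes, are shown to set their base composition side by side, with the letters of any searched motif in capitals.
Smyd2, chr1:189922242-189922541, minus strand: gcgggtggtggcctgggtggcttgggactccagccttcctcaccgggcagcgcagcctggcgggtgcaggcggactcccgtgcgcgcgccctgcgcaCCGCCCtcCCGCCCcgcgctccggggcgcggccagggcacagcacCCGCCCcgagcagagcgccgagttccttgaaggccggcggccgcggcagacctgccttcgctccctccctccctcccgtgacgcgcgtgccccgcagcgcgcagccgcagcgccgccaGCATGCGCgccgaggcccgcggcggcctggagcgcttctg
Setmar, chr6:108064795-108065094, plus strand: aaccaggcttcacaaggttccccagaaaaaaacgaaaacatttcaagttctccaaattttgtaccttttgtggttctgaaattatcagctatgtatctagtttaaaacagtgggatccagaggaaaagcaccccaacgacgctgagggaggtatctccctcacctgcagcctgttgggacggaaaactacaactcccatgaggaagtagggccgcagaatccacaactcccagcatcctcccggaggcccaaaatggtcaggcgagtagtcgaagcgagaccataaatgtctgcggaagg
Setd5, chr6:113104685-113104984, plus strand: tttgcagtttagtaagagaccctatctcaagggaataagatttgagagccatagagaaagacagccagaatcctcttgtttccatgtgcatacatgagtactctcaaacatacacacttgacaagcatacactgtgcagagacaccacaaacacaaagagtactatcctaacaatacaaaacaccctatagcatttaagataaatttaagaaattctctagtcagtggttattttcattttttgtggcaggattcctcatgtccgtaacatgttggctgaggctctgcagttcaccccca

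The *Smyd2* window was 79.0% G and C with 43 CpG pairs, where the median over 32851 mouse promoter windows was 7. The *Setmar* window was 48.7% G and C with 10 CpG pairs, and the *Setd5* window was 39.7% with 1. The *Smyd2* and *Setd5* windows were at starts inside the genes' spans in the count table, and the *Setmar* start was at the first listed base. Motifs were searched on both strands as ACGTG (hypoxia response element core, in 19.6% of all windows), CCGGAAG (ETS, 8.86%), TTCCCGCC (E2F, 2.19%), TGACGT (cyclic AMP response element, 7.51%), GCATGCGC (NRF1, 2.71%) and GGGCGG (SP1 GC box, 35.7%). Letters of ACGTG and TGACGT, and of TTCCCGCC and GGGCGG, can overlap. The *Smyd2* window held 1 GCATGCGC and 3 GGGCGG matches, the *Setd2* window and each of the 2 overlapping *Setd3* windows held 7 GGGCGG matches, and the letters of these motifs were not in the *Setmar* and *Setd5* windows. A match describes the letters only.

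Among the members, 5 of 8, *Nsd1*, *Nsd2*, *Nsd3*, *Ash1l* and *Setd5*, have 10000 to 20000 exon bases. The 1011 tested genes of that length had a median log2 fold change of −0.10 with quartiles of −0.51 and 0.18, beside a median of 0.03 over all tested genes. Of them 136 were called lower and 39 higher, 17.3% in all against 12.7% of all tested genes, and the class itself was not tested. In a fit that took out a trend with exon length and GC content, the upper ends of the 95% intervals of *Nsd2* and *Nsd3* moved to 1.03-fold and 1.02-fold. *Setd5* had 0.47 in that fit (edgeR adjusted p = 0.0345), with an upper end of 1.67-fold. With the chromosome level also taken out, an alternative added after the data had been seen, *Setd5* had 0.22 (edgeR adjusted p = 0.132).

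The sexes of the tumors, read from *Xist* and Y-linked genes, were unevenly spread, with 3 male and 1 female tumors in *K-Ctrl* and 1 male and 3 female in *K-Setd2KO*. Within male and within female tumors the mean log2 difference was −0.51 and −0.33 for *Nsd2*, −0.41 and −0.42 for *Nsd3*, 0.90 and 0.41 for *Smyd2* and 0.40 and 0.29 for *Setd5*. For *Setmar* the differences were 1.53 and −0.04, the former set by *K-Setd2KO* replicate 3 alone, and for *Ash1l* they were −0.08 and 0.07. Each of these differences sets 3 tumors against 1, so they are values without a test and do not separate genotype from sex.

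Genes on other sides of the H3K36 pathway were also compared. Of 7 H3K36 demethylases, 0 were called. The one with the smallest p, *Kdm4b*, a demethylase of trimethylated H3K9 and H3K36, had means of 21.8 ± 1.99 CPM in the controls and 29.2 ± 3.25 CPM in *K-Setd2KO* (log2 fold change 0.42, edgeR adjusted p = 0.0749). Of 14 readers of methylated H3K36, 3 (21.4%) were called, all higher, where 12.7% of all tested genes were called and 4.97% were called as higher, and the median over the list was 0.03, as over all tested genes. *Glyr1*, whose PWWP-domain protein works with the demethylase LSD2, went from 158 ± 6.58 to 234 ± 4.93 CPM (0.57 on the log2 scale, SE 0.0944, edgeR adjusted p = 0.00922). *Phf1*, a Tudor-domain partner of Polycomb repressive complex 2, went from 32.7 ± 1.96 to 48.8 ± 10.3 CPM (0.58, SE 0.159, edgeR adjusted p = 0.0454). *Brpf1*, a PWWP-domain scaffold of histone acetyltransferase complexes that also lies on chromosome 6, went from 43.8 ± 5.10 to 61.7 ± 3.28 CPM (0.49, SE 0.118, edgeR adjusted p = 0.0285).

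Of 4 partners of *Setd2* and *Ash1l*, 0 were called, and *Iws1*, which ties SETD2 to elongating polymerase, had means of 75.7 ± 4.59 CPM in the controls and 61.2 ± 6.21 CPM in *K-Setd2KO* (log2 fold change −0.31, edgeR adjusted p = 0.106). Of 20 other SET-domain histone methyltransferases, 0 were called (12.7% of all tested genes), 10 were read higher and 10 lower, and 4 had groups that did not overlap (20.3% of all tested genes). Their median log2 fold change was 0.01, as it was for the 8 members, with a range of −0.49 to 0.74. *Setd7*, an H3K4 monomethyltransferase that also acts on other proteins, had the smallest p in that list, with means of 157 ± 4.90 CPM in the controls and 127 ± 10.9 CPM in *K-Setd2KO* (−0.31, edgeR adjusted p = 0.0804).

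**Figure D5:**
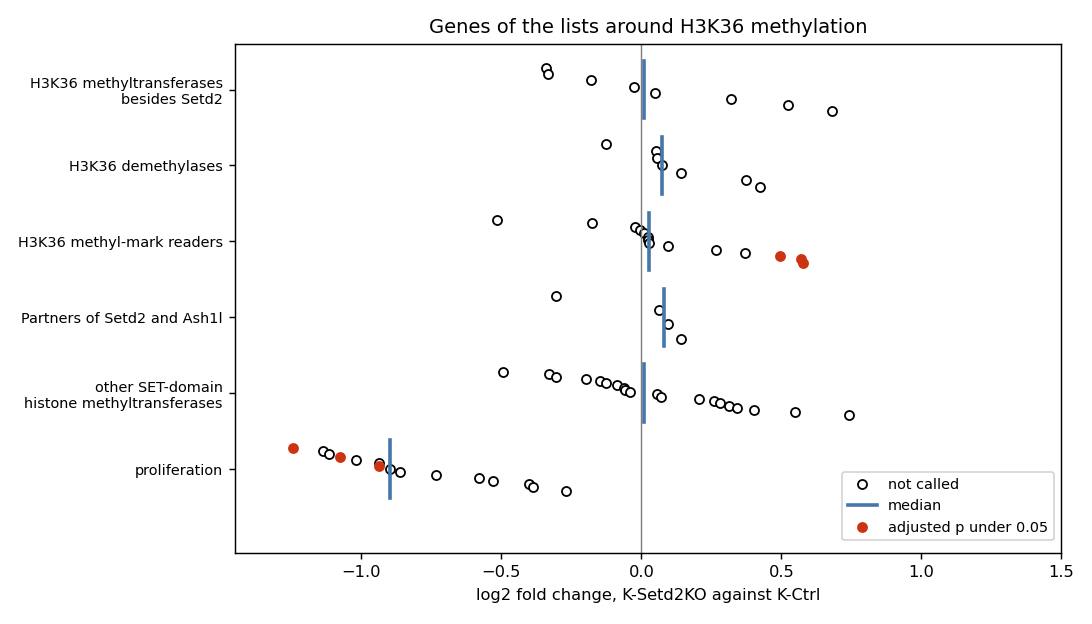
Log2 fold change of each gene in the lists around H3K36 methylation, with filled points for an edgeR adjusted p under 0.05 and lines for list medians. The 8 members and the 20 other SET-domain enzymes both centre at 0.01, and the proliferation genes all lie below 0.

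Markers of other cell types and of dividing cells also differed between the groups. Over all tested genes, 7.74% were called as lower and 4.97% as higher. All 15 proliferation genes were read lower, with 3 called, *Pcna* (−0.94), *Rrm2* (−1.24) and *Mki67* (−1.08), and summed levels of 382 to 418 CPM in the controls and 149 to 293 CPM in *K-Setd2KO*. Of 5 leukocyte markers 4 were called lower (417 to 836 against 145 to 199.8 CPM summed), as were 4 of 5 macrophage markers (424 to 1422 against 145 to 290.0 CPM), 2 of 5 endothelial markers (406 to 1586 against 154 to 387 CPM), 1 of 5 T cell markers (33.9 to 83.6 against 6.18 to 28.2 CPM) and 1 of 5 fibroblast markers (496 to 1120 against 141 to 583 CPM). Of 5 B cell markers 0 were called and 4 were read lower (11.6 to 54.9 against 13.2 to 22.1 CPM), and 1 of them was at 0 in some tumor. Of 5 neutrophil markers 0 were called and 4 were read higher, with a median log2 fold change of 0.54 (15.9 to 20.3 against 13.8 to 56.0 CPM). Of 5 epithelial markers 2 were called higher (1782 to 2761 against 2526 to 3065 CPM), and the 6 alveolar type 2 markers, with 1 called higher and 1 lower, were abundant in every tumor (39459 to 58966 against 47224 to 65870 CPM). Their part in the values of *Nsd2*, *Nsd3* and *Smyd2* was not tested, and in whole tumors fewer cells of a type and less RNA per cell cannot be told apart.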

How the data were processed

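The authors deposited raw counts of reads or read pairs per gene for 8 tumors, with no normalization. The submitters' processing notes name STAR 2.5.2b, featureCounts 1.5.0-p1 and GRCm38.p4. The annotation release and the strand setting of counting are not given in the sources used here. Gene symbols came from GENCODE M21 (48349 of 48709 identifiers, 99.26%), coordinates from the deposited table (1-based), and promoter windows from RefSeq. Groups were taken from the sample labels.

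Counts were tested in R 4.3.3 with edgeR 4.0.16 (filterByExpr, TMM factors, robust quasi-likelihood fit, genotype alone, Benjamini-Hochberg adjustment over 14929 genes, threshold 0.05). Each standard error is the size of the log2 fold change over the root of its F value. CPM used TMM-scaled totals, log2 CPM a prior count of 2, and TPM the table's exon lengths. A limit of 3 counts was 0.141 to 0.517 CPM, covering counting error only. Exact permutation tests were two-sided over 70 assignments. Alternatives were DESeq2 1.42.0, limma voom 3.58.1, RLE and upper-quartile factors, other count filters, a replicate block, a sex term, offsets for length with GC content or for chromosome, and leaving out each tumor.

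The members and lists were chosen with earlier results of these data known. Besides the members and *Setd2*, the text names up to 4 called genes of each pathway list, or the one with the smallest p where none was called, and the 3 genes with the profile closest to the member with the smallest p. *Gm37422* and genes used to read the sex of tumors were named for the values beside them. The allele behind the tumor model is not reported here.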

Additional observations from a re-analysis of the deposited data

Results flagged for a closer look

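*Setd3* in *K-Setd2KO* replicate 4 was read at 117 CPM, and the nearest of the other 3 tumors of that group was at 151 CPM. The gap took a share of 0.842 of the group's whole range, above the 95% critical value of Dixon's test for 4 samples. In all, 18 groups of 4 tumors were examined, where chance gives 0.9 such tumors.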

How the results depend on the processing

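The edgeR fit called 1897 genes, 742 higher and 1155 lower, and 0 members. DESeq2 called 3194 (1327 higher, 1867 lower) and 2 members, *Nsd2* (−0.35) and *Nsd3* (−0.34). A minimum of 10 counts in every tumor called 1 member, *Nsd2* (−0.38). A sex term gave 1237 genes, 453 higher. The length and GC offset called 1 member, *Setd5* (0.47), and turned *Ash1l* to 0.12 and *Setd2* to 0.064. With the chromosome offset as well, chosen after seeing the data, *Ash1l* was 0.14, *Setd2* 0.063 and *Nsd1* 0.011. The cause of these shifts was not tested.

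Leaving out 1 tumor gave 763 to 2058 genes (224 to 856 higher, 539 to 1284 lower) and 0 to 1 members, with 938 without *K-Ctrl* replicate 1, 1126 without replicate 2, 763 without replicate 3 and 1011 without *K-Setd2KO* replicate 3. Log2 fold changes ran from −0.24 to −0.12 for *Nsd1*, −0.39 to −0.28 for *Nsd2*, −0.41 to −0.29 for *Nsd3*, −0.055 to 0.00099 for *Ash1l* (above 0 without *K-Ctrl* replicate 1), 0.25 to 0.44 for *Setd5*, −0.028 to 0.13 for *Setd3* (below 0 without *K-Ctrl* replicate 2), 0.31 to 0.86 for *Setmar*, 0.37 to 0.63 for *Smyd2* and −0.11 to −0.00 for *Setd2*.

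A replicate block lowered the higher calls to 403 and called 0 members. Deviations of same-numbered tumors correlated at −0.07, −0.03, 0.19 and −0.02, and only number 3 of *K-Ctrl* matched its own number best. With 4 pairs this cannot tell whether same-numbered tumors share more than a number. Depth limits *Setmar* most, with 32 to 116 counts a tumor.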
